A study of Mus musculus with 158 samples.

Results

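The loci examined were those of 10 genes known for their expression in vascular endothelium: Pecam1, Cdh5, Cldn5, Kdr, Flt1, Tek, Tie1, Eng, Vwf and Emcn. They were listed by name, as 10 of the 21755 protein-coding genes of the autosomes and chromosome X. The list used no measured value as a criterion, but earlier results of these data were known when it was made. For each, DNase I hotspots were collected over the annotated gene body plus 20 kb on both sides in the mm10 genome. A hotspot is a stretch of chromatin in which DNase I cuts are denser than in its surroundings, here at a false discovery rate (FDR) of 5%. All 10 loci were among the 21386 genes tested.

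Endothelial cells line blood vessels, and every solid organ contains them beside its own parenchymal cells. Their identity rests on adhesion molecules that hold neighbouring cells together, and on receptors for vascular endothelial growth factor (VEGF) and the angiopoietins, which drive vessel growth and then stabilise the vessel. Factors of the ETS, SOX, GATA and FOX families are known to bind the regulatory DNA of such genes. Capillaries differ between organs: those of lung are continuous, those of the kidney glomerulus are fenestrated, and the sinusoids of liver have open pores.

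The adult data were 20 hotspot sets, 1 for each of 4 tissues in each of 5 F1 hybrids. The hybrids were offspring of C57BL/6J (B6) females and males of another inbred strain, and were labelled B6x129, B6xC3H, B6xCAST, B6xPWK and B6xSPRET. Lung, kidney and liver were taken as whole organs, and the material of several mice was usually pooled. B cells came from the femoral marrow of 8-week-old females, after magnetic depletion of cells carrying CD43 or Mac-1/CD11b. All mice therefore carried a B6 genome beside that of the other strain, and the labels name no transgene or treatment. The submitters had pooled 2 to 14 libraries into each set, 138 libraries in all, so the set was the unit and the 5 hybrids of a tissue were its repeats. A set of B6xCAST mouse embryonic stem cells (mESC), pooled from 2 libraries, and an mESC CTCF ChIP-seq set from 1 library were described without a test.

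Sets differed in size, with 152006 to 281978 hotspots in lung, 186061 to 238917 in kidney, 211762 to 295565 in liver and 78387 to 156078 in B cells. They covered 43.8 to 97 Mb, 63.6 to 85.2 Mb, at least 78.4 Mb and 29 to 68.7 Mb in that order. Coverage of a locus was therefore scaled to the same total hotspot bp in every set and is given as scaled bp per kb of region. Values of 5 sets are listed in the order B6x129, B6xC3H, B6xCAST, B6xPWK and B6xSPRET. Tissue labels were checked with marker genes, and each own-tissue list (4 genes each for lung epithelium, kidney, liver and B cells) was higher in its tissue for 4 of 4 genes. In whole organs, fewer cells of a type and less accessible chromatin per cell cannot be told apart.

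The sequences below show the promoters of 5 members with different patterns of hotspots at the gene start, and 4 distal sites picked by the tissues in which they were found. Each promoter holds 250 bases before and 50 bases from the RefSeq start (GRCm38.p6), and each distal site is a 300-base window at the middle of a merged hotspot site (mm10). Each runs 5′ to 3′, promoters on the strand of their gene and sites on the plus strand. Capitals mark exact matches, on either strand, to the motifs searched. Hotspot counts of promoters are for the window within 500 bp of the gene's annotated start. For Emcn, the B6xCAST B cell hotspot (chr3:137341148-137341439) lies in that window and outside the printed bases.
Cldn5 promoter, chr16:18776597-18776896, plus strand, hotspot in all 15 organ sets and no B cell set: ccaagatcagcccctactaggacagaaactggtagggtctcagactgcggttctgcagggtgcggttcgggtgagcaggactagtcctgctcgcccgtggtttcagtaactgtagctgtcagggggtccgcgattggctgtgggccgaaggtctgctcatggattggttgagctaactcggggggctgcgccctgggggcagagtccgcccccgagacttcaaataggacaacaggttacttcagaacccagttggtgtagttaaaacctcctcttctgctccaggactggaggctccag
Kdr promoter, chr5:75978406-75978705, minus strand, hotspot in all 20 sets: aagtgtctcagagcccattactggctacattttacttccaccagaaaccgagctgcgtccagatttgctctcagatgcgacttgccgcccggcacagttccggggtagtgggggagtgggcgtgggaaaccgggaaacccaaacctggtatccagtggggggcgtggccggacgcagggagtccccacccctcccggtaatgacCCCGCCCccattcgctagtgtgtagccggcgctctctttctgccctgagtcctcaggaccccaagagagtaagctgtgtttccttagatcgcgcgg
Tie1 promoter, chr4:118489800-118490099, minus strand, hotspot in all 15 organ sets and no B cell set: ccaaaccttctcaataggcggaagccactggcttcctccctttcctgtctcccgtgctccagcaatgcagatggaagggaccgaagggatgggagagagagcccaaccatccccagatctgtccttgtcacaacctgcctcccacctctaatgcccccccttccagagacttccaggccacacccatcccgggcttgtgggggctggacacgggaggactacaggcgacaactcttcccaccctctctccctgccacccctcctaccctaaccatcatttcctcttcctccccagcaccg
Eng promoter, chr2:32646345-32646644, plus strand, hotspot in 17 sets: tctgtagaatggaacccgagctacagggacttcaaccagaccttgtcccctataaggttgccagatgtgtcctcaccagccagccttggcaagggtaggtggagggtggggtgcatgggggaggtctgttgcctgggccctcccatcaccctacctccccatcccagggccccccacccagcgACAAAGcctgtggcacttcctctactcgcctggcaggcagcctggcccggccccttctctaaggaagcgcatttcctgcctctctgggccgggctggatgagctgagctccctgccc
Emcn promoter, chr3:137340828-137341127, plus strand, hotspot in 14 sets: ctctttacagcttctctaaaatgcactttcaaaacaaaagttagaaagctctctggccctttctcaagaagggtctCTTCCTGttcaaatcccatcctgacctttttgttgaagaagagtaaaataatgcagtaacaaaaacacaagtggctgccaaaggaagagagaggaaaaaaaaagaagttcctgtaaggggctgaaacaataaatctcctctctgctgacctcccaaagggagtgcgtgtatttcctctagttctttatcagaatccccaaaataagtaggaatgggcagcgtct
Eng intronic site, chr2:32661663-32661962, hotspot in the window in 14 sets: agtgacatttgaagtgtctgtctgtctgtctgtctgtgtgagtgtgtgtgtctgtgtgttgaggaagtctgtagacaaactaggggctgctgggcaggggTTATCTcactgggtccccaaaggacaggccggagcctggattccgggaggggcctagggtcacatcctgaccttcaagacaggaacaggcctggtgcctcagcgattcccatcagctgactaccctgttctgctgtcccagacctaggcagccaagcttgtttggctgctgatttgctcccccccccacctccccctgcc
Cldn5 upstream site, chr16:18761785-18762084, lung only: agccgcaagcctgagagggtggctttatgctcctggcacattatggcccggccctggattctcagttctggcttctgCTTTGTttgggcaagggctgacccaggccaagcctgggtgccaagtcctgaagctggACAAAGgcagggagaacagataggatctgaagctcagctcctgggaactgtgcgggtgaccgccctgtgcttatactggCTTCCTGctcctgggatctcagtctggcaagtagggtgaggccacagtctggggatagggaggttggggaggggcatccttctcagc
Tek intronic site, chr4:94789069-94789368, lung only: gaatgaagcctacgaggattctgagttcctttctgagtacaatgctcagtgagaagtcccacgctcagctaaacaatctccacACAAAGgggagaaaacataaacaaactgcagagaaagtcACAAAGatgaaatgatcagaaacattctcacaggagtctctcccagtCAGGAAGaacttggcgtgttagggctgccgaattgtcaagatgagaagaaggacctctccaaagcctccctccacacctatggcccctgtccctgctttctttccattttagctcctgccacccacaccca
Emcn intronic site, chr3:137376222-137376521, kidney only: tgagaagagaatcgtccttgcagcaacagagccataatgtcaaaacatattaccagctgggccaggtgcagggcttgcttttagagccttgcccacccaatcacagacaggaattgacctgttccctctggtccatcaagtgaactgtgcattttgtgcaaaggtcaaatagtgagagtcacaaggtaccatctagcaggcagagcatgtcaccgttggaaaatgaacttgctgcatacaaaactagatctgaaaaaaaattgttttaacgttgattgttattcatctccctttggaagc

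The motifs searched were those of ETS factors (CAGGAAG or CCGGAAG), FOX factors (GTAAACA), SOX factors (ACAAAG), KLF/SP factors (GGGCGGG) and AP-1 (TGANTCA), each on both strands. For GATA factors the letters were AGATAA. None of these motifs contains another. The RefSeq table held promoters for 7 of the 10 members. Of 32851 promoters of the same length, 20.9% held the ETS letters, 3.65% FOX, 11.2% GATA, 18.7% SOX, 25.6% KLF/SP and 7.81% AP-1. Of 745754 windows at the middle of hotspot sites, the shares were 15.5%, 5.59%, 16.6%, 24.6%, 3.12% and 11.2%. Flt1 had 3 KLF/SP matches and Kdr 1, Tek had 1 SOX and 1 GATA match, Eng 1 SOX match and Emcn 1 ETS match, while Cldn5 and Tie1 held none of these letters in the window. The lung-only sites of Cldn5 and Tek each held 2 SOX matches and 1 ETS match, the Eng site held 1 GATA match and the Emcn site none. CpG dinucleotides numbered 29 in the promoter of Flt1, 19 in Kdr, 12 in Cldn5, 7 in Tie1, 6 in Eng, 3 in Tek and 2 in Emcn, against a median of 7 and quartiles of 3 and 20 over all promoters. The promoters with hotspots in all 15 organ sets (Cldn5, Kdr, Flt1, Tek and Tie1) thus ranged from 3 to 29 CpG. A match describes letters in the reference genome and does not show that a factor was bound.

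Most of these loci had more coverage in lung than in the mean of the other tissues. Scaled coverage was higher in lung than in the mean of the other tissues for 9 of 10 members and lower for 0 (limma, adjusted p under 0.05 over all 21386 genes; also 9 and 0 at unadjusted p), where 20.9% of all genes were called higher and 24.8% lower. The median log2 difference over the members was 1.05, against -0.05 over all genes. In all 5 lung sets Cldn5 and Tek lay above the other 15 sets, as 2.68% of all genes did. Kidney followed with 6 members higher and 2 lower (22.5% and 28.5% of genes) and a median of 0.86 against -0.07. Liver had 2 higher and 6 lower (25.2% and 35.1%) with a median of -0.35 against -0.10. B cells had 2 higher and 7 lower (43.5% and 27.1%) with a median of -1.22 against 0.17. These 4 comparisons share their sets, so their counts are not independent. The mean of the other tissues includes B cells, whose sets were nearly empty at Cldn5, Tek and Tie1, so a lung call does not place lung above each organ. Mean scaled coverage in lung was below that of kidney and liver at Tie1 (49.3 against 51.8 and 61.8), below kidney at Emcn (18.5 against 24.9), close to kidney at Flt1 (70.4 against 70.6), and below B cells at Pecam1 (103 against 141) and Cdh5 (51.3 against 71.1).

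**Figure D1:**
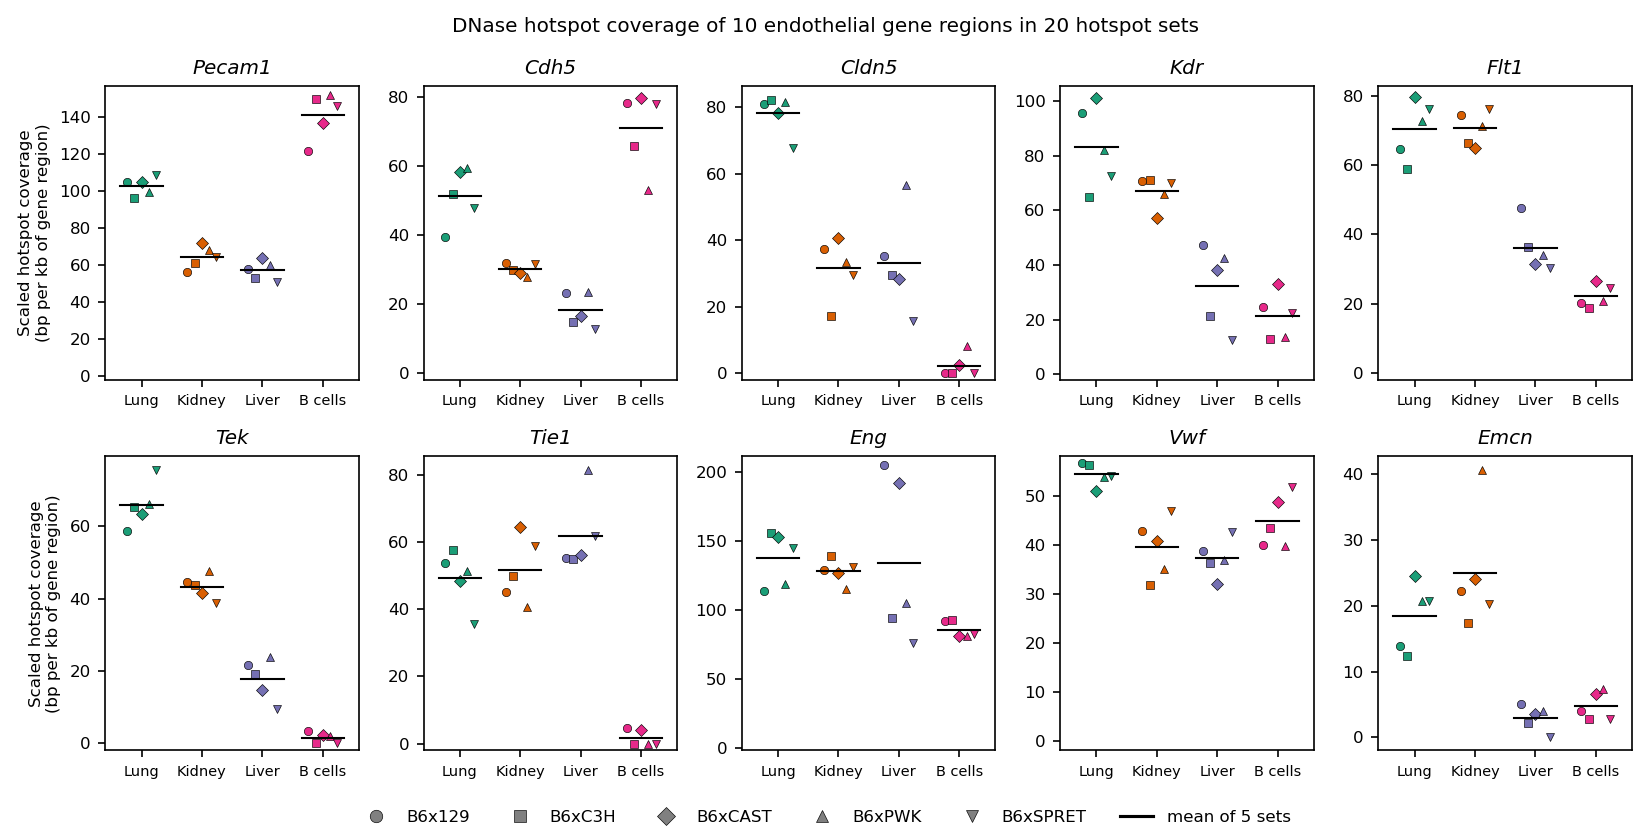
Scaled hotspot coverage (bp per kb of region) at each of the 10 loci, 1 point per set, with symbols for hybrids and a line at the mean of 5 sets. Tek separated into 4 levels, from 58.7 to 75.5 in lung down to 0 to 3.43 in B cells, whereas Pecam1 and Cdh5 had their highest values in B cells.

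**Figure D2:**
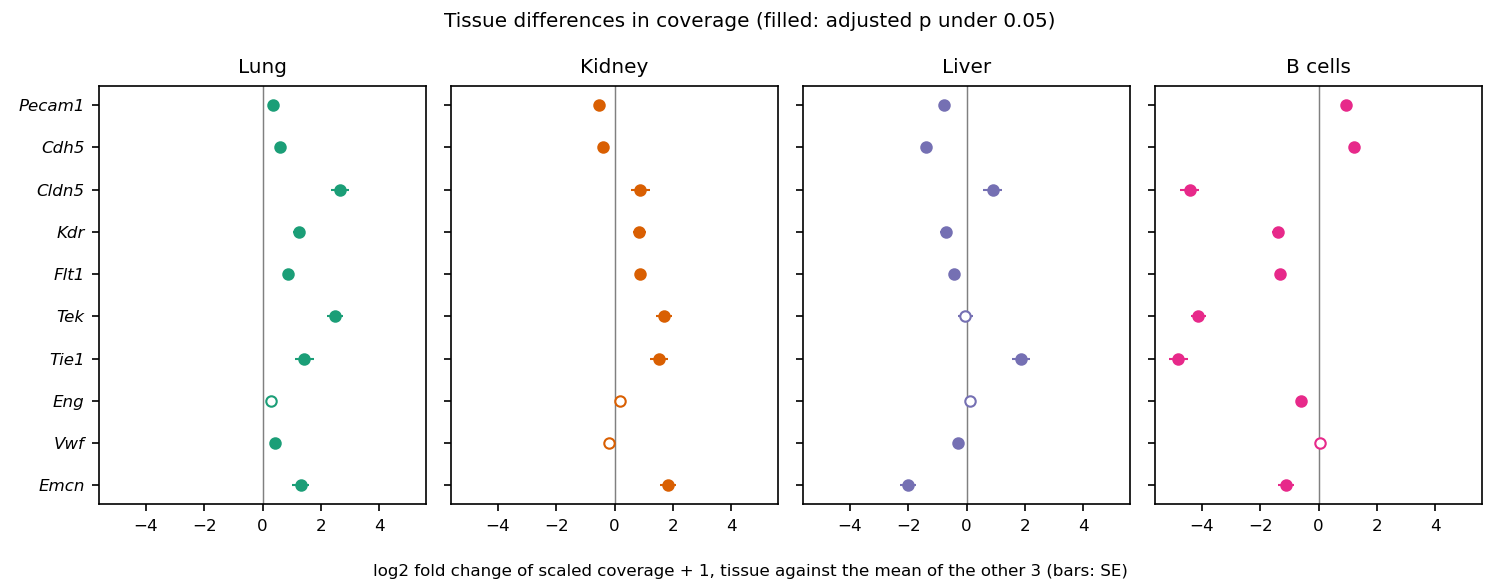
Log2 difference of each tissue from the mean of the other 3 tissues for each member, with its standard error, from the fit over 21386 genes. Lung values were positive for all 10 members (Eng did not pass the test), and the B cell values ran from -4.81 (Tie1) to 1.20 (Cdh5).

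The adhesion and junction genes opened the contrast between members. Pecam1 encodes PECAM-1 (CD31), an immunoglobulin-family adhesion molecule at endothelial contacts that platelets and many leukocytes, B cells among them, also carry. The gene lies at chr11:106654217-106750628 on the minus strand, and its region of 136 kb includes the start of Milr1 and part of Polg2. In B cells its scaled coverage was 122, 150, 137, 152 and 146 bp per kb. In lung it was 105, 96.5, 105, 99.8 and 109. Kidney ranged from 56.2 to 72.2 and liver from 51.1 to 64.0. The B cell sets lay above all 15 others, as they did for 15.6% of all genes, and lung lay above kidney and liver, which overlapped. The log2 difference was 0.95 ± 0.07 (SE) for B cells (limma adjusted p = 2.4e-09) and 0.35 ± 0.07 for lung (adjusted p = 0.00062), and -0.54 and -0.77 for kidney and liver (8.9e-06 and 7.7e-08). Without scaling none of these 4 calls passed, with 0.19 for B cells, 0.27 for lung, -0.31 for kidney and -0.15 for liver (adjusted p = 0.28, 0.19, 0.13 and 0.41). With a flank of 50 kb the lung value was 0.08 (0.29).

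The Pecam1 sets also differed in which of the gene's 5′ ends was covered. A hotspot within 500 bp of the annotated start was found in 5 lung, 3 kidney, 4 liver and 5 B cell sets. The 3 kidney hotspots began at chr11:106751100 to 106751127, at the upstream edge of that window. None of them spanned the start base, which 5 lung, 4 liver and 5 B cell sets covered. Hotspots in the window were 2056 to 4311 bp wide in B cells (median 3034 bp), against 310 to 1023 bp in lung and 122 to 201 bp in kidney. The merged site there, chr11:106748381-106752691, made up 30.6% of the covered bp of the region in B cells and also spans the start of Milr1, an inhibitory receptor gene of mast cells. Transcripts Pecam1-202, Pecam1-203, Pecam1-204, Pecam1-205 and Pecam1-207 begin 35.2 to 35.7 kb further downstream, and a site at chr11:106715008-106715530 covers or adjoins those starts. It was 401, 313, 453, 346 and 426 bp wide in lung and 450, 505, 335, 523 and 364 bp in kidney. In liver it was found in the B6x129 (163 bp) and B6xPWK (188 bp) sets, and in B cells in the B6xCAST set alone (285 bp). The annotated start was thus widest in B cells, and the internal start was found in all 10 lung and kidney sets and 1 of 5 B cell sets. Platelet and megakaryocyte markers (5 genes) had a summed coverage of 220 to 241 bp per kb in the B cell sets, against 272 to 399 in the other tissues. In B cells 0 to 1 of 5 had a start hotspot. Myeloid markers (5 genes) summed to 288 to 404 against 175 to 333, with a start hotspot at 1 to 3 of 5. The part of platelets, megakaryocytes or myeloid cells in the Pecam1 result was not tested.

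Cdh5 encodes VE-cadherin, the cadherin of endothelial adherens junctions. It lies at chr8:104101625-104144511 on the plus strand, with no other coding gene in its region of 82.9 kb. Scaled coverage was 78.4, 65.9, 79.9, 53.0 and 78.1 bp per kb in B cells and 39.5, 51.8, 58.2, 59.4 and 47.8 in lung. Kidney ranged from 27.8 to 31.8 and liver from 12.7 to 23.6. B cells and lung overlapped through the B6xPWK B cell set, and the liver sets lay below all 15 others, as they did for 6.73% of genes. The log2 difference was 1.20 ± 0.14 for B cells (limma adjusted p = 8.8e-07), 0.58 ± 0.14 for lung (0.0031), -0.40 for kidney (0.027) and -1.38 for liver (3.1e-07). Without scaling the B cell (0.45, adjusted p = 0.061), lung (0.50, 0.063) and kidney (-0.17, 0.57) calls were lost, and with the number of hotspots those of lung (0.36, 0.18) and kidney (-0.41, 0.11). The kidney value was 0.00 with the 75000 highest-scoring hotspots, and its call was also lost without B6xC3H (-0.42, adjusted p = 0.056), B6xCAST (-0.37, 0.092) or B6xPWK (-0.36, 0.059).

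High coverage of Cdh5 in B cells did not come with a hotspot at the annotated gene start. The annotated start had a hotspot in 5 lung, 5 kidney and 4 liver sets and in 0 B cell sets. In B cells 3 intragenic sites held 27.4%, 25.7% and 11.6% of the covered bp. The site at chr8:104110404-104111586, 9.37 kb downstream, was present in all 20 sets and overlaps the start of transcript Cdh5-202. Its width was 1025, 694, 1070, 995 and 918 bp in B cells and 1139, 725, 747, 852 and 751 bp in liver, but 111 to 451 bp in lung and 214 to 387 bp in kidney. The site at chr8:104126856-104127976 was 1062, 728, 1091, 763 and 769 bp wide in B cells, 203, 242 and 183 bp in the B6x129, B6xCAST and B6xPWK lung sets, and absent elsewhere. The site at chr8:104129630-104130256 was found in all B cell sets (250 to 627 bp) and all lung sets (292 to 385 bp), in 1 kidney set (63 bp) and in no liver set. In lung and kidney the widest share lay instead at chr8:104121629-104122593, with 25.6% and 28.6% of the covered bp.

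**Figure D3:**
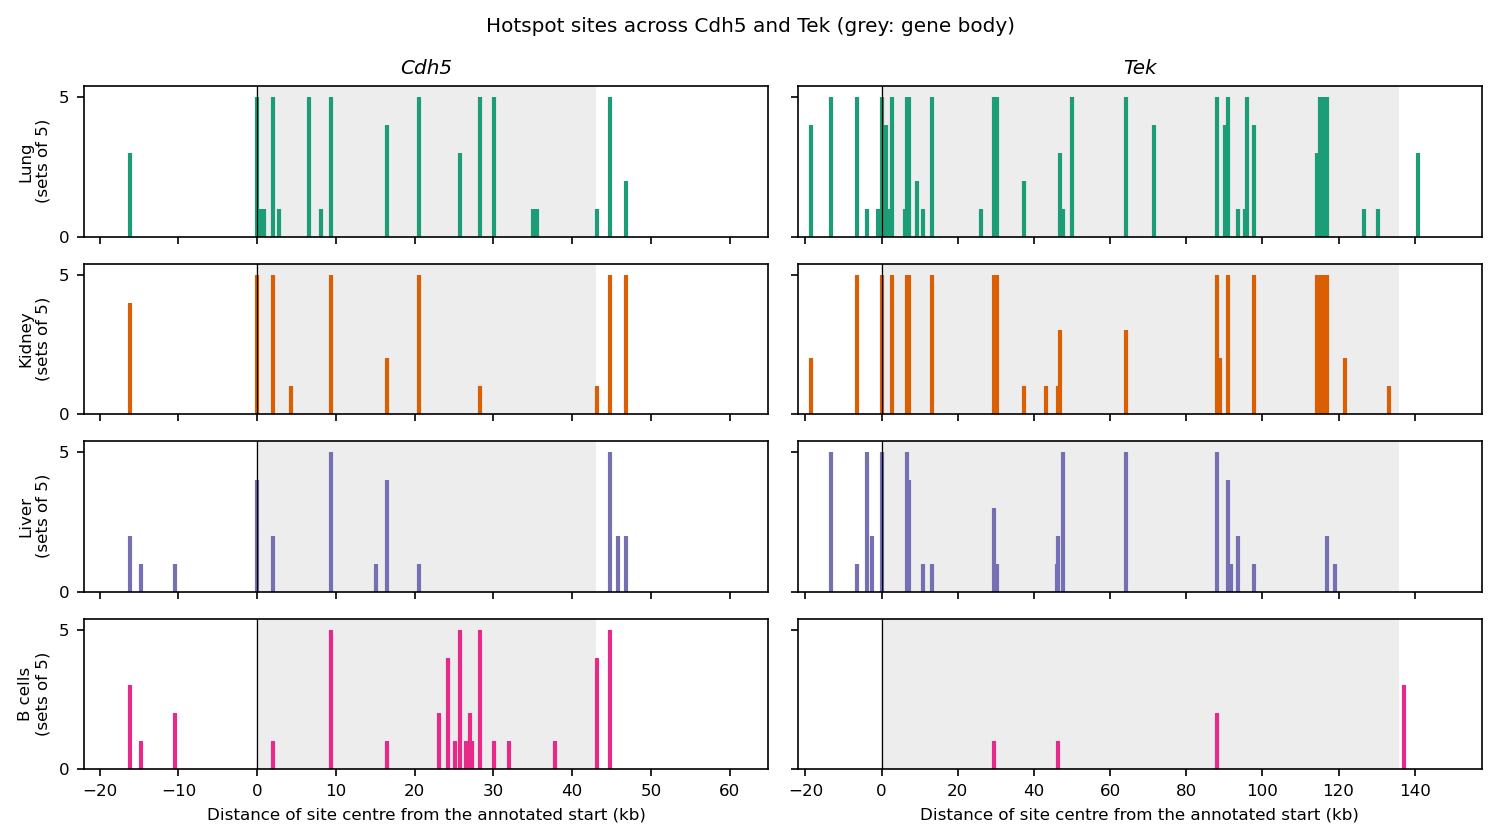
Hotspot positions by distance from the gene start (kb) at Cdh5 and Tek, 1 panel per tissue, where the height of a bar is the number of sets (of 5) with the site and grey marks the gene body. At Cdh5 the B cell panel has intragenic sites and none at the start, and at Tek it is nearly empty.

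Cldn5 encodes claudin-5, the main claudin of endothelial tight junctions. It is a short gene at chr16:18776847-18778262 on the plus strand, and Cdc45 reaches into its region of 41.4 kb. In lung, scaled coverage was 81.0, 82.2, 78.3, 81.5 and 67.6 bp per kb. Kidney had 37.3, 17.1, 40.6, 33.4 and 29.6, and liver 35.2, 29.6, 28.2, 56.7 and 15.8. In B cells the values were 0, 0, 2.49, 8.06 and 0. Lung was above and B cells below every other set, and kidney and liver overlapped. The log2 difference was 2.65 ± 0.32 for lung (limma adjusted p = 5.5e-06) and -4.42 ± 0.32 for B cells (1.9e-09). The size of the B cell difference depended on the pseudocount, being -6.50 with 0.1 and -2.17 with 10. Kidney and liver values of 0.88 and 0.89 passed narrowly (0.031 and 0.024). With a flank of 50 kb they were -0.05 and -0.30 (limma adjusted p = 0.65 and 0.0036), so liver was then called lower. The kidney call was also lost without B6x129 (0.74, adjusted p = 0.11), B6xCAST (0.83, 0.088) or B6xSPRET (0.71, 0.13), and the liver call without B6x129 (0.79, 0.076) or B6xC3H (0.76, 0.088).

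A hotspot at the Cldn5 start was found in all 15 organ sets, in no B cell set and in mESC. The start hotspots had median widths of 664 bp in lung, 483 bp in kidney and 993 bp in liver. Their ranges overlapped between lung (625 to 2078 bp) and liver (653 to 1340 bp). Outside the start and gene body, a mean of 1390 bp was covered in lung, 503 bp in kidney and 585 bp in liver, unscaled. The site whose middle is printed above, chr16:18761668-18762201, lies 14.9 kb upstream and was 453, 415, 534, 483 and 438 bp wide in lung. It was found in none of the 15 other sets.

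The VEGF receptors shared a profile of high lung and kidney coverage and lower liver and B cell coverage. Kdr encodes VEGFR2, the main signalling receptor for VEGF-A, and lies at chr5:75932827-75978458 on the minus strand. Its scaled coverage was 95.4, 65.0, 101, 82.2 and 72.7 bp per kb in lung and 70.6, 71.1, 57.3, 66.0 and 70.0 in kidney. Liver had 47.3, 21.2, 38.0, 42.4 and 12.6, and B cells 24.7, 12.8, 33.1, 13.8 and 22.4. Lung overlapped kidney and liver overlapped B cells, with a gap between these pairs. The log2 difference was 1.25 ± 0.21 for lung (limma adjusted p = 0.00012), 0.85 for kidney (0.0025), -0.71 for liver (0.0069) and -1.39 for B cells (1.1e-05). The liver call was lost over the gene body alone (-0.25, adjusted p = 0.45), without scaling (-0.12, 0.72) and without the B6xSPRET sets (-0.42, 0.066). With the number of hotspots the kidney value was 0.49 (0.052). Kdr was the sole member with a start hotspot in all 20 sets, as 46.5% of genes had. In B cells that hotspot was 112 to 635 bp wide, against 357 to 1933 bp in lung. The mESC set had a start hotspot of 1587 bp.

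Flt1 encodes VEGFR1, which binds VEGF-A tightly and, in its soluble form, keeps it from other receptors. It lies at chr5:147561604-147726011 on the minus strand, with the end of Pan3 in its region of 204 kb. Scaled coverage was 64.5, 58.9, 79.7, 72.7 and 76.2 bp per kb in lung and 74.5, 66.2, 64.9, 71.3 and 76.1 in kidney. Liver ranged from 30.4 to 47.6 and B cells from 18.6 to 26.5. Lung and kidney overlapped, liver lay below both, and B cells lay below all 15 other sets, as they did for 8.43% of genes. Differences were 0.86 ± 0.11 for lung and 0.87 ± 0.11 for kidney (limma adjusted p = 7.9e-06 and 5.2e-06), -0.42 for liver (0.0029) and -1.31 for B cells (9.2e-09). The liver value was -0.15 with the number of hotspots (0.35) and 0.17 without scaling (0.49). Unlike Kdr, Flt1 had a start hotspot in 0 B cell sets, beside all 15 organ sets and mESC. Of its 79 sites, 19 were found in lung, kidney and liver and not in B cells, the most of any member.

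Both members of the angiopoietin receptor family had nearly no hotspots in B cells, as Cldn5 had. Tek encodes Tie2, the receptor of the angiopoietins, and lies at chr4:94739289-94874976 on the plus strand with no other coding gene in its region. Its scaled coverage was 58.7, 65.2, 63.3, 66.1 and 75.5 bp per kb in lung and 44.6, 43.7, 41.5, 47.6 and 38.9 in kidney. Liver had 21.5, 19.1, 14.8, 23.8 and 9.45, and B cells 3.43, 0, 2.35, 2.06 and 0. Each tissue was separated from the next, in the order lung, kidney, liver and B cells, and of the 10 members this held for Tek alone. The log2 difference was 2.48 ± 0.26 for lung (limma adjusted p = 1.1e-06), 1.69 for kidney (4.1e-05) and -4.13 for B cells (2.9e-10). The last was -5.67 with a pseudocount of 0.1 and -2.06 with 10. The liver value of -0.04 did not pass the test (0.89), with liver below lung and kidney and above B cells. Liver was called lower with a pseudocount of 10 (-0.40, 0.0024), a flank of 50 kb (-0.37, 0.025) and the 75000 highest-scoring hotspots (-2.28, 8.4e-06). The lung-only intronic site printed above, chr4:94788915-94789521, lies 49.9 kb from the start and was 468, 250, 607, 446 and 289 bp wide.

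Tie1 encodes a related receptor that modulates Tie2 signalling and itself binds no angiopoietin with high affinity. It lies at chr4:118471191-118490061 on the minus strand, in a region of 58.9 kb. Scaled coverage was 53.8, 57.7, 48.4, 51.3 and 35.6 bp per kb in lung and 45.1, 49.8, 64.5, 40.6 and 58.8 in kidney. Liver had 55.1, 54.9, 56.1, 81.3 and 61.6, and B cells 4.56, 0, 3.93, 0 and 0. The 3 organs overlapped and stood apart from B cells. The log2 difference was 1.43 ± 0.32 for lung, 1.52 for kidney and 1.86 for liver (limma adjusted p = 0.0014, 0.00073 and 7e-05) and -4.81 for B cells (5.5e-10). Because each tissue was set against the mean of the others, B cells with nearly no hotspot entered each of the organ values. With pseudocounts of 0.1 and 10 the B cell value was -6.89 and -2.46, and with the number of hotspots the kidney call was lost (0.76, 0.071). Its start hotspots were 901 to 1311 bp wide in liver, against 543 to 843 bp in lung and 568 to 622 bp in kidney. The RefSeq start of the printed promoter lies 212 bp downstream of the annotated start used here.

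Eng encodes endoglin, a co-receptor for ligands of the TGF-beta family. It lies at chr2:32646595-32682669 on the plus strand, overlaps Fpgs and has part of Ak1 in its region of 76.1 kb. Its scaled coverage was 114, 156, 153, 119 and 145 bp per kb in lung, 115 to 139 in kidney, and 205, 94.3, 192, 105 and 75.9 in liver. B cells had 91.7, 92.5, 81.2, 81.2 and 82.2. Lung and kidney overlapped, and liver spanned the values of every other tissue. B cells were lower by -0.59 ± 0.16 (limma adjusted p = 0.0029), and the lung, kidney and liver differences of 0.30, 0.17 and 0.12 did not pass (0.14, 0.38 and 0.53). Over the gene body alone lung and kidney were called higher, by 1.06 and 0.69 (adjusted p = 0.001 and 0.015), and without scaling liver was (0.73, 0.0016). With a flank of 50 kb the B cell call turned to higher (0.25, limma adjusted p = 0.033). Without the B6x129 sets the lung value passed (0.43, adjusted p = 0.038). In liver, 20.7% of the covered bp lay in a site 55.9 kb downstream that spans the start of Fpgs and was found in 1 lung, 5 kidney, 5 liver and 0 B cell sets. A site 47.1 kb downstream, within Fpgs, held 13.7% in liver and the largest share in B cells (29.8%).

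Within the gene, Eng had sites found in the organ sets and not in B cells, but its start was not among them. Its start had a hotspot in 5 lung, 5 kidney, 4 liver and 3 B cell sets, of 91 to 243 bp in B cells and 382 to 827 bp in lung. The site printed above, chr2:32661320-32662305, lies in an intron 15.2 kb from the start and had a median width of 787 bp. It was picked as the widest Eng site present in all 15 organ sets and absent from all B cell sets. The 300 bases printed from its middle met a hotspot in 14 sets. The start of transcript Eng-204, 26.8 kb downstream, likewise had a hotspot in all 15 organ sets and in 0 B cell sets, and was added after its values were seen.

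Vwf encodes von Willebrand factor, the multimeric clotting glycoprotein stored in endothelial Weibel-Palade bodies and in platelets. It lies at chr6:125546774-125686679 on the plus strand, and the start of Ano2 falls in its region of 180 kb. Scaled coverage was 56.8, 56.3, 51.1, 53.9 and 54.0 bp per kb in lung and 40.0, 43.5, 48.8, 39.8 and 51.8 in B cells. Kidney ranged from 31.7 to 47.0 and liver from 32.0 to 42.6. The tissues differed little, and lung and B cells overlapped through 1 set each. Lung was higher by 0.43 ± 0.09 (limma adjusted p = 0.0011) and liver lower by -0.29 (0.012), the latter not without B6xCAST (-0.23, 0.072). The lung call was lost without scaling (0.34, adjusted p = 0.14). The liver call was lost when scaled to the median gene region (-0.17, 0.12), with a flank of 50 kb (-0.19, 0.066), with the number of hotspots (-0.18, 0.23) and with the 75000 highest-scoring hotspots (-0.09, 0.51), and its direction turned without scaling (0.32, 0.13). The kidney and B cell differences of -0.19 and 0.05 did not pass (0.09 and 0.63). Without scaling B cells were called lower (-0.69, limma adjusted p = 0.0014).

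Vwf had no hotspot within 500 bp of its annotated start in any of the 20 sets, as 21.1% of genes had none, nor in mESC. Transcripts Vwf-202 and Vwf-203 begin 6.17 to 6.19 kb downstream. A site there, chr6:125552744-125553101, was 287, 201, 358, 205 and 292 bp wide in lung and 202, 211, 164, 201 and 163 bp in kidney. It was found in 1 liver set (B6x129) and in no B cell set, so this start followed the tissues in a way that total coverage of the locus did not. The covered bp of the locus were led by sites shared by all sets. An intronic site at chr6:125572289-125573762, 26.3 kb from the start, was present in all 20 sets with a median width of 1277 bp and held 30.6% of the covered bp in B cells.

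Emcn encodes endomucin, a mucin-like sialoglycoprotein of capillary and venous endothelium. It lies at chr3:137341067-137432185 on the plus strand with no other coding gene in its region of 131 kb. Scaled coverage was low: 22.2, 17.4, 24.1, 40.7 and 20.3 bp per kb in kidney and 13.9, 12.4, 24.5, 20.8 and 20.8 in lung. B cells had 3.97, 2.78, 6.65, 7.32 and 2.78, and liver 5.06, 2.19, 3.58, 4.00 and 0. Kidney and lung overlapped, and both were above liver and B cells, which overlapped. The difference was 1.83 ± 0.28 for kidney, the highest kidney value of the 10 members (limma adjusted p = 3.5e-05), 1.3 for lung (0.00097), -2.01 for liver (6.7e-06) and -1.12 for B cells (0.0015). The B cell call was lost with a pseudocount of 0.1 (-1.05, adjusted p = 0.10), the number of hotspots (-0.56, 0.081) and the 75000 highest-scoring hotspots (-0.24, 0.55), and the last also ended the lung call (0.37, 0.39). The start had a hotspot in 3 lung, 5 kidney, 4 liver and 2 B cell sets. The kidney-only site printed above, chr3:137376234-137376509, lies in an intron 35.3 kb from the start and was 264, 224, 153, 228 and 201 bp wide.

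**Figure D4:**
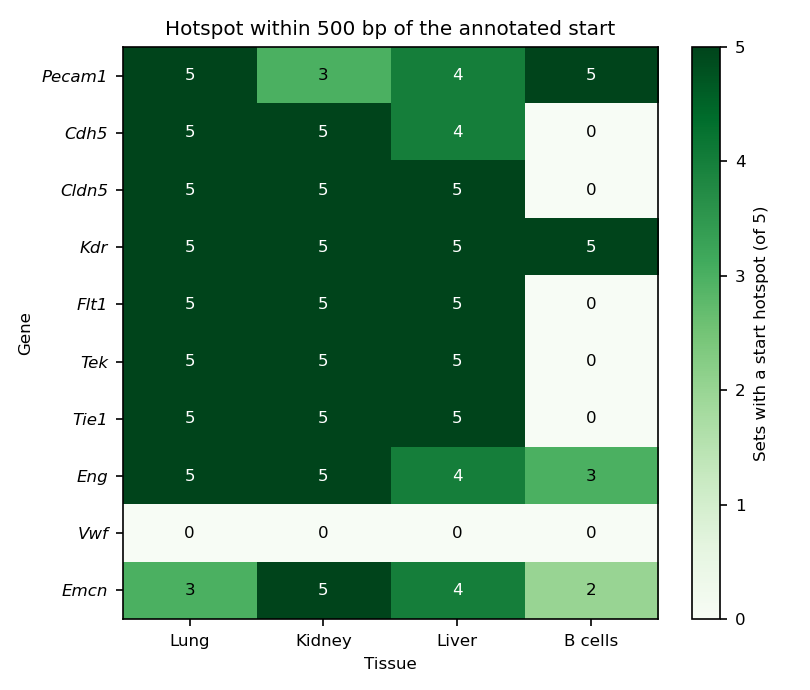
Number of sets out of 5 with a hotspot within 500 bp of the annotated start, for each member (rows) and tissue (columns). Cdh5, Cldn5, Flt1, Tek and Tie1 had 0 B cell sets beside 4 or 5 sets of each organ, Kdr had all 20, and Vwf had none.

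Across the members, a start hotspot was present in every lung set for 8 of 10, every kidney set for 8, every liver set for 5 and every B cell set for 2. Over all 21755 genes the corresponding shares were 58.7%, 61.2%, 57.9% and 49.9%. No B cell set had a start hotspot at 6 of 10 members (Cdh5, Cldn5, Flt1, Tek, Tie1 and Vwf), as at 39.2% of genes. The pattern of all 15 organ sets and no B cell set was held by 4 of 10 members (Cldn5, Flt1, Tek and Tie1) and by 2.18% of genes. Pecam1, Cdh5, Eng and Emcn each lacked a start hotspot in 1 liver set, which was B6xSPRET in all 4 cases. That set had the fewest hotspots of the liver sets (211762) and a start hotspot at 5 members. The B6xC3H liver set, with 215510 hotspots, had one at 9 members. The part of set size was not tested. Without the B6xSPRET sets, 9 members had a start hotspot in every liver set. Presence at the start is given as counts of sets and was not tested.

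Hybrids were not told apart at these loci. In the same fit, 0 of 10 members differed among the 5 hybrids (limma moderated F-test, adjusted p under 0.05), as 0.178% of all genes did. At an unadjusted p under 0.05 there were 2, Cldn5 and Emcn, both with p = 0.042 and an adjusted p of 0.38. The count was also 0 under each leave-one-out setting.

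The hotspots of the 10 regions merged into 456 sites. Of these 14.9% (68 sites) were found in lung, kidney and liver and not in B cells, against 7.55% of the 486188 sites of all protein-coding gene regions. Sites of lung and kidney only made up 7.89% against 4.04%, and sites of lung only 19.7% against 16.6%. The shares were below those of all regions for sites of liver only (13.6% against 20.7%), kidney only (9.65% against 12.4%) and B cells only (9.21% against 10.3%). Sites present in all 20 sets made up 3.73% against 5.05%. These shares are a description, since sites of 1 locus share libraries and neighbours. Recurrence across hybrids also differed by tissue. At these loci 105 of 282 lung sites (37.2%) and 109 of 218 kidney sites were found in all 5 sets, where the shares over all regions were 30.4% and 43.3%. The shares were 30.8% in liver and 25.2% in B cells, against 36.8% and 30.1%. No site at these loci was found in all 5 B cell sets and nowhere else.

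**Figure D5:**
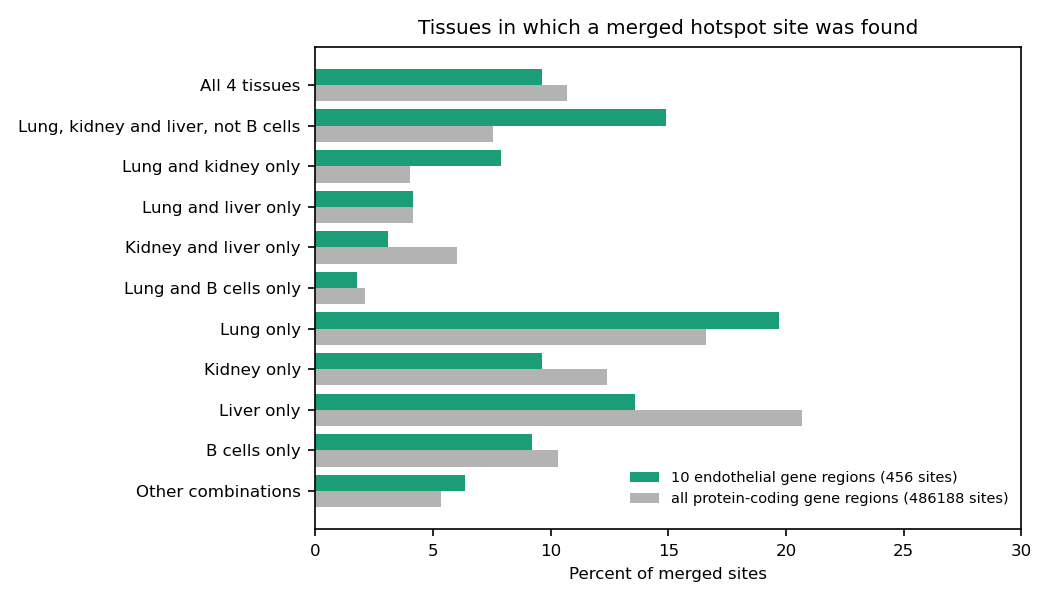
Percent of merged sites found in each combination of tissues, for the 10 endothelial gene regions (456 sites) and for all protein-coding gene regions (486188 sites). The bars differ most for lung, kidney and liver without B cells (14.9% against 7.55%) and for liver only (13.6% against 20.7%).

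Other genes of the endothelial programme gave a mixed picture. Of 12 endothelial transcription factor genes, 7 were higher and 1 lower in lung, 2 and 5 in kidney, 1 and 8 in liver, and 6 and 4 in B cells. Over all genes, as above, 20.9% were higher and 24.8% lower in lung, 22.5% and 28.5% in kidney, 25.2% and 35.1% in liver, and 43.5% and 27.1% in B cells, and several of the counts in these lists lie near those shares. Gata2, a zinc finger factor of endothelial and blood progenitors, had the largest lung difference (1.42, limma adjusted p = 0.00024), and Etv2, a factor of early vascular development, was lower (-0.59, adjusted p = 1.8e-05). Of 18 other endothelial surface genes, 13 were higher and 1 lower in lung, 7 and 4 in kidney, 2 and 12 in liver, and 4 and 9 in B cells. Clec14a, a C-type lectin of endothelium, led in lung (2.95, adjusted p = 4.9e-07) and Calcrl, a receptor for adrenomedullin, was lower (-0.67, adjusted p = 0.0032). The VEGF and angiopoietin ligand genes (8) had 3 higher and 0 lower in lung, 2 and 0 in kidney, 4 and 1 in liver, and 3 and 5 in B cells. Angpt2, the ligand that antagonises Tie2 in many settings, had a lung difference of 0.96 (adjusted p = 0.00015), and Vegfb one of -0.30 that did not pass (0.077). The median lung difference was 0.44 for the factors, 0.42 for the surface genes and -0.08 for the ligands, so of these lists the ligands lay closest to the -0.05 of all genes.

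The genes most like each member were sought by Pearson's r of log2 scaled coverage over the 20 sets, leaving out genes within 1 Mb. Tek was most like Prickle2 (0.990), Rab27b (0.979) and Pknox2 (0.977), and Cldn5 most like Slc10a6 (0.981), Nckap5 (0.978) and Ccdc68 (0.973). For Flt1 they were Cachd1 (0.982), Prkd1 (0.981) and Galnt18 (0.979), and for Tie1 Akr1c19 (0.986), Gpr143 (0.983) and Peg3 (0.983). For Kdr they were Krt19 (0.946), Col13a1 (0.942) and Rhoj (0.938), and for Emcn Stox2 (0.931), Fstl1 (0.924) and Ntn1 (0.919). Pecam1 was most like Tm6sf1 (0.981), Tmem163 (0.973) and Nectin4 (0.969), and Cdh5 most like Ehd4 (0.961), Plekha2 (0.961) and Agpat4 (0.958). Values were lower for Vwf (Noto, 0.869, Csf2, 0.846, and Riox1, 0.843) and for Eng (Duxbl1, 0.740, Hmgb4, 0.726, and Krtap9-1, 0.723). Among the members themselves, r was 0.92 for Tek with Cldn5 and with Flt1, 0.91 for Kdr with Flt1, 0.90 for Pecam1 with Cdh5 and -0.80 for Pecam1 with Tie1. All points share the sets and their tissues, so these values describe profiles over tissues.

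In mESC, a start hotspot was found at 4 of 10 members (Cldn5, Kdr, Flt1 and Tek), against 62.8% of all genes. The 10 regions held 92 mESC DNase hotspots, of which 57 (62.0%) overlapped an adult hotspot, against 73.8% over all gene regions. Tek stood apart, with 33 mESC hotspots of a median width of 165 bp, of which 9 (27.3%) overlapped an adult hotspot. Flt1 had 19 (15 overlapping), Vwf 11 (8), and Tie1 1. The CTCF set had 59 hotspots in these regions, of which 40 (67.8%) overlapped an adult DNase hotspot, against 69.2% over all regions. Flt1 had 17 of them and Vwf 13, whereas Cldn5 and Kdr had 0. Both mESC sets stand for 1 hybrid and carry no repeat.

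The RNA-seq tables held few counts and are given as a description. The 17 libraries had totals of 283725 to 809337 expected counts, and it is not clear whether the tables hold whole libraries. Actb, a gene every cell uses, ranged from 1 to 99 counts and Gapdh from 0 to 29.2, so a count of 0 does not show that a gene was silent. The 10 members together had 7 to 72 counts in a library. Cdh5 had 3 to 9 expected counts in the 4 lung libraries and 0 in all 5 B cell libraries, and Pecam1 had 2 to 15 in B cells and 0 to 1 in liver. Eng had 14 to 66 in liver and 3 to 4 in lung. Tek had 0 to 22 in B cells, with a median of 0. The 22 came from the B6xSPRET library alone, and the other B cell libraries had 0 or 1. Vwf had 0 to 18 in kidney, also with a median of 0, and the 18 came from the B6xPWK library alone. No test was made.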

How the data were processed

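DNase-seq hotspots of 20 adult sets and 1 mESC set, and CTCF ChIP-seq hotspots of mESC, were used as deposited. The authors had mapped the reads to mm10 with BWA and merged all libraries of 1 hybrid and tissue before running hotspot2 (FDR of 5%). The deposited score column holds −log10 of the FDR (1.3 to 100, with a ceiling) and was used only to rank or filter hotspots within a set. RNA-seq tables hold expected counts per gene as deposited by the authors, whose processing notes name Trimmomatic, STAR and RSEM, and were only described.

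Gene bodies came from GENCODE vM21, extended by 20 kb. Hotspot bp per kb, scaled to the median total hotspot bp of the sets, were analysed as log2(value + 1) with limma 3.58.1 (R 4.3.3, eBayes with trend) in 1 fit of tissue and hybrid over 20 sets. Genes needed a hotspot base in at least 3 sets. Each tissue was contrasted with the mean of the other 3, and p-values were Benjamini-Hochberg adjusted over 21386 genes with a threshold of 0.05. Fold differences are on the log2(value + 1) scale and understate those of low loci. Sets of the 5 hybrids are different crosses, and the hybrid term takes up differences between hybrids that all tissues share. Tissue p-values therefore weigh a tissue difference against the variation left among sets, moderated across genes. That variation mixes tissue differences that vary by hybrid with noise between sets. Hotspots of the 20 sets overlapping by at least 1 bp were merged into sites. Tested on simulated data for the lung comparison (21386 genes), the fit recovered 76% of 200 genes changed by a log2 value of 1, and 4.4% of calls were false. In the deposited sets 20.9% of all genes were called higher in lung and 24.8% lower. The share of false calls in the deposited sets was not tested.

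All members were named. Of other lists, the genes with the largest and smallest lung difference and any called against the majority could be named. Named sites were those at a start, those in all 20 sets, and the widest per member in 1 tissue only or in all organs and no B cells. Sites that lead a tissue's covered bp or lie at another transcript's start were added after their values were seen. The members and lists were chosen with earlier results of these data known. Scaling, filter, pseudocount, flank, hotspot threshold, start window and leaving out each hybrid were varied. Sequences came from RefSeq promoters (GRCm38.p6) and the mm10 reference. Hotspot sets carry no read counts, so depth entered only through the number of hotspots per set.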

Additional observations from a re-analysis of the deposited data

Results flagged for a closer look

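In 3 of the 40 groups of 5 sets (10 members in 4 tissues), 1 set lay far from the other 4 by Dixon's ratio, where chance at 1 in 20 gives 2. Cldn5 in lung was 67.6 scaled bp per kb in the B6xSPRET set, with the nearest other lung set at 78.3. Tie1 in liver was 81.3 in the B6xPWK set, with the nearest at 61.6. Emcn in kidney was 40.7 in the B6xPWK set, with the nearest at 24.1. Each of these sets left its tissue's call unchanged when its hybrid was left out.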

How the results depend on the processing

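Of the counts of members, 132 of 150 under other settings and 64 of 70 with a hybrid left out stayed within 1.5 times the reported count. Of single member values, 492 of 544 and 189 of 200 kept their side of the threshold and, where they passed, their direction. Values that passed in neither setting were counted as kept even where their sign changed. Eng in liver, for example, ran from -0.07 to 0.3 with a hybrid left out. Scaling mattered most. Without it, the lung calls of Pecam1 (0.27, limma adjusted p = 0.19), Cdh5 (0.50, 0.063) and Vwf (0.34, 0.14) were lost. In the same setting 0 members were higher in B cells, 0 lower in kidney and 2 lower in liver. Flt1 (0.17, limma adjusted p = 0.49) and Vwf (0.32, 0.13) reversed in liver without passing the test. Vwf also reversed in B cells and was then called lower (-0.69, 0.0014). Without scaling the median of all genes moved from -0.05 to -0.13 in lung, from -0.07 to 0.14 in kidney, from -0.10 to 0.46 in liver and from 0.17 to -0.52 in B cells. The share of calls that were higher moved from 45.7% to 36.5%, from 44.2% to 76.4%, from 41.8% to 90.0% and from 61.6% to 11.8%; scaled to the median gene region it was 48.1%, 49.4%, 51.6% and 51.1%. Requiring a hotspot base in all 20 sets left 6 members to test, of which 5 were higher in lung, 2 in kidney and 0 in liver, and 3 lower in B cells. The liver count of higher members was 1 with 75000 hotspots per set, a flank of 50 kb, no hybrid term, the number of hotspots, or pseudocounts of 0.1 or 10. The kidney count of lower members was 1 with the number of hotspots. Cldn5 reversed in kidney and liver with 75000 hotspots (-1.56 and -1.25) and with a flank of 50 kb (-0.05 and -0.30), and Eng in B cells with that flank (0.25). With that flank Cldn5 in liver was called lower (limma adjusted p = 0.0036) and Eng in B cells higher (0.033). The other reversed Cldn5 values did not pass. The cause of these changes was not tested. Members with a start hotspot in every liver set numbered 3 at the start base itself and 1 with 75000 hotspots; in every B cell set, 1 at the start base; and in no B cell set, 3 with a window of 2 kb. With each hybrid left out in turn, members lower in kidney numbered 1 to 2, members higher in liver 1 to 2 and members with every liver start 5 to 9. The number of hotspots per set, lowest in B cells, limits what absence of a hotspot shows. Tissues were paired by hybrid through the hybrid term; without it Cldn5 kept its values in kidney and liver but lost both calls (adjusted p = 0.064 and 0.051). For the labels' library numbers, no paired analysis was possible because the deposited sets pool the libraries.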

Other observations

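Genes that mark the endothelium of liver sinusoids (5 genes) did not move together. In liver 2 were higher, Stab2 (0.94, limma adjusted p = 2.9e-05) and Lyve1 (0.44, 0.0051), which encode receptors for hyaluronan, and 2 were lower, Clec4g (-0.75, 0.0083) and Fcgr2b (-0.34, 0.0052). The latter encodes an inhibitory Fc receptor that B cells also carry, and its mean scaled coverage was 162 bp per kb in B cells against 54.0 to 63.9 in the organs. Stab1 was at -0.17 and did not pass (0.18). Markers of mural cells and fibroblasts (4 genes) had 2 higher and 0 lower in lung, 2 and 1 in kidney, 0 and 3 in liver, and 1 and 2 in B cells. Over all genes 20.9% were higher and 24.8% lower in lung, 22.5% and 28.5% in kidney, 25.2% and 35.1% in liver, and 43.5% and 27.1% in B cells. These 2 lists were described after the members and add no test of them.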
